A study of Mus musculus with 22 samples.

Results

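Ly6 and Ifitm genes encode small surface proteins by which leukocytes and endothelium are often sorted. The 10 genes Ly6a, Ly6c1, Ly6c2, Ly6d, Ly6e, Ly6g, Ifitm1, Ifitm2, Ifitm3 and Ifitm6, taken by name from the 31053 genes of the count matrices, were followed across mouse cell classes in blood and in organs. The data were unique molecular identifier (UMI) counts from droplet single-cell libraries, made in a study that asked whether loss of the sodium leak channel gene Nalcn, without oncogenic change, releases cells of solid tissues into the blood. Of 22 libraries with 179929 barcodes in all, 20 had a group that the labels gave without conflict. They comprised 10 libraries of circulating ZsGreen-positive cells from mice without tumours (ntCZC), 9 libraries of pooled organs (tissue) and 1 library of peripheral blood mononuclear cells (PBMC).

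All mice carried Prom1-CreERT2 and the Rosa26ZSG reporter, and the groups were wt, Nalcn-het and Nalcn-null at the floxed Nalcn locus. The Cre is tamoxifen-dependent and driven by the Prom1 promoter, so both the reporter and the deletion were switched on only in cells that had Prom1 activity and their descendants, and most leukocytes and endothelial cells of the tissue libraries need not carry the deletion. The ntCZC libraries came from wt 1 (male, 571 days) and wt 3 (male, 608 days), from het 1 (male, 610 days), het 2 and het 4 (males, 551 days) and het 3 (female, 649 days), and from null 1 (female, 551 days), null 2 (male, 552 days), null 3 (female, 612 days) and null 4 (female, 613 days). The tissue libraries were wt 1 and wt 2 (males, 571 days), wt 3 (male, 608 days), wt 4 (female, 611 days), wt 5 (female, 654 days), het 1 and het 2 (males, 551 days), null 2 (male, 552 days) and null 3 (female, 611 days). The PBMC library was from a wt male of 120 days. Each tissue library pooled dissociated kidney, lung, liver and stomach with epididymis in males or uterus in females, and the organ tags were not used here, so no barcode has an organ. Libraries of the same age and sex may share a mouse, which the labels do not state, and p-values then measure the spread between these libraries.

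Ly6 proteins fold into a compact disulfide-rich domain that is mostly held to the outer membrane by a lipid (GPI) anchor, and several are the antigens of classical antibodies, such as Sca-1 for Ly6a, Ly6C for Ly6c1 and Ly6c2, and the neutrophil antigen for Ly6g. Ifitm proteins are short membrane proteins induced by interferon that hinder the fusion of enveloped viruses with host membranes, and some are also high at rest in monocytes, endothelium and stromal cells. On mm10 the 6 Ly6 members lie together on chromosome 15, from Ly6d (74762056-74763620) through Ly6e (74955051-74959905), Ly6a (74994877-74998031), Ly6c1 (75044018-75048830) and Ly6c2 (75108158-75111970) to Ly6g (75155240-75159126). The 4 Ifitm members lie on chromosome 7, in the order Ifitm2 (140954837-140955987), Ifitm1 (140967221-140969825), Ifitm3 (141009586-141010770) and Ifitm6 (141015699-141017924).

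Ly6c1 and Ly6c2 are near copies of each other whose cell classes turned out to differ, so their promoters are shown, as RefSeq gives them on GRCm38.p6. Each line is the 250 bases before the start on the minus strand, and capitals mark the bases that differ from the other gene, or have no partner in it, in an alignment of 229 columns of which 168 (73.4%) were identical. The first 31 bases of Ly6c1 and the last 25 bases of Ly6c2 lay outside the alignment and are in lower case.
Ly6c1, chr15:75048838-75049087: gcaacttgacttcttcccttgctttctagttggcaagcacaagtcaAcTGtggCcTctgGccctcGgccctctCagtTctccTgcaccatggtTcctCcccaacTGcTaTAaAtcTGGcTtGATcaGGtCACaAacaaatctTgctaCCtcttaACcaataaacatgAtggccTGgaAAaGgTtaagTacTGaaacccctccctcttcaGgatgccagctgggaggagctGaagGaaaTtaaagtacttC
Ly6c2, chr15:75111972-75112221: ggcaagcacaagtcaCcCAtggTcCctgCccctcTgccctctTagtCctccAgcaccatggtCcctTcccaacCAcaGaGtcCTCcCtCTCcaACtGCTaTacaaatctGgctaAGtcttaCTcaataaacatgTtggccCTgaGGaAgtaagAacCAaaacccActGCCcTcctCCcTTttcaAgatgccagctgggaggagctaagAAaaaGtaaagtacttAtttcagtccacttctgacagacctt
The copies also share transcript sequence. Of the 310 windows of 91 bases, the length of the sequenced read, in the last 400 bases of each transcript, 34 (11%) were identical between Ly6c1 and Ly6c2, and 34 (11%) of those of Ifitm2 were shared with Gm8865. The other 7 members had no shared window. A read from a shared window cannot be given to 1 gene, so counts of these 3 members may be low by that part.

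Several members of both families are induced by interferon, and the interferon-stimulated response element has the letters GAAANNGAAA or, on the other strand, TTTCNNTTTC. These letters occurred in 1131 of 32851 RefSeq promoters (3.44%) in windows from 250 bases before to 50 after the start, and in those of Ifitm2 and Ifitm3 among the 7 members whose promoters were in the table (not Ly6a, Ly6d and Ly6e). The promoter of Ifitm2 is shown with its match in capitals, which begins 46 bases before the start; in Ifitm3 the matches began 2 and 19 bases after the start.
Ifitm2, chr7:140955962-140956211, minus strand: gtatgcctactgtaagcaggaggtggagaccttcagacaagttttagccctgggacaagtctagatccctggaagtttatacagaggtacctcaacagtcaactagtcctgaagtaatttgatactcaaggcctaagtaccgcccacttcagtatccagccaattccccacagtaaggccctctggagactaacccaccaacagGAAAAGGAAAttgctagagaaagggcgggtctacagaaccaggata
The letters of the gamma-activated site, TTCNNNGAA, which read the same on both strands, were in 2726 promoters (8.3%), among them those of Ifitm3 and Ifitm6. A match of letters is a description of the sequence and does not show binding.

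The libraries differed widely in depth. Total UMIs ranged from 161541 to 2600526 in ntCZC, from 8571019 to 139793927 in tissue and were 1422144 in PBMC. Barcodes under 200 detected genes or over 25% mitochondrial UMIs were dropped, which left 2109 of 2501 in ntCZC and 72758 of 143502 in tissue. Probable doublets (11853) were then taken out of the tissue libraries, and the rest (60905 in tissue) were put into cell classes by marker genes, none of which is a member. Genes outside the gates were checked in the classes, and the endothelial receptor gene Kdr stood at 222.5 to 2356 CPM (UMIs of the gene scaled to the same total in every library) in the endothelial classes against 12.08 CPM in classical monocytes. Mesothelial cells held 159.6 CPM of Kdr, the most of any class outside endothelium. The sums of this check took in the tissue libraries without a group. Nalcn itself had 0 UMIs in every ntCZC library and in PBMC and 0 to 18 in tissue libraries, so it could not check the genotype labels. The tissue library labelled null 3, female, had both Xist (1347 CPM) and Y-linked transcripts (31.22 CPM, against at most 0.1167 CPM in other female-labelled tissue libraries with a group). Without it, the number of members called was the same in all comparisons below that used it, except that 4 and not 5 were called in nonclassical monocytes and 1 and not 3 in plasma cells. ntCZC wt 3 had 77 barcodes with a median of 325 UMIs. Libraries shared at most 2.6% of the barcodes of the smaller library.

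**Figure D1:**
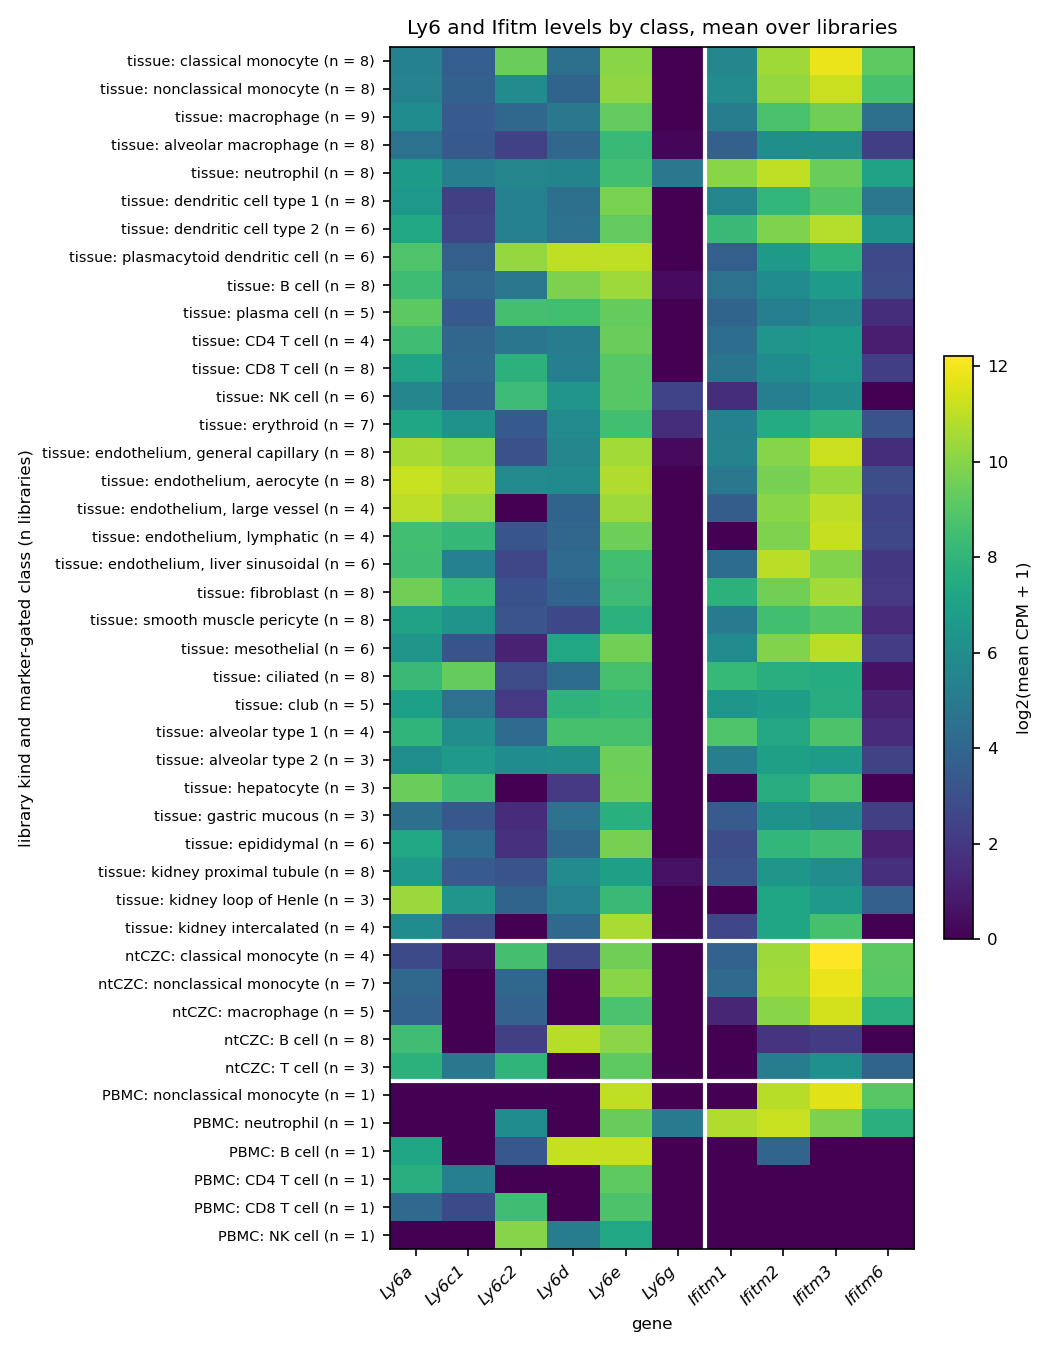
Mean level of each of the 10 genes (columns) in each cell class (rows) as log2(mean CPM + 1), for 32 tissue classes with at least 3 libraries, 5 ntCZC classes and 6 PBMC classes. Ly6e is filled in every tissue row, Ly6c1 in endothelial rows, Ly6c2 in leukocyte rows and Ly6g faintly in neutrophils.

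The 10 genes ranged from one present in every class to one at the edge of detection. A class level is the mean CPM over the libraries with enough barcodes of that class, and 32 tissue classes had at least 3 such libraries. Ly6e reached 100 CPM in all 32 classes, Ifitm3 in 25, Ifitm2 in 24 and Ly6a in 20. The others were narrower, with 7 classes for Ly6c1, 6 for Ly6d, 5 for Ly6c2 and Ifitm1, 3 for Ifitm6 and 0 for Ly6g. Some counted classes had an SD between libraries above their mean. Examples were Ifitm1 in alveolar type 1 cells (454.4 CPM, SD 896.6, n = 4) and Ly6c1 in hepatocytes (353.9 CPM, SD 555, n = 3). Shares of positive barcodes are given after thinning every barcode to 1000 UMIs, leaving out shallower barcodes, since depth alone moves such a share. Proximal tubule cells, an epithelium outside these lineages, were taken for comparison, although they were not the lowest class for several members, and what part of a low level is free RNA was not tested. Their mean levels were 122.2 CPM for Ly6e, 93.28 for Ly6a, 86.51 for Ifitm2, 62.57 for Ifitm3, 57.89 for Ly6d and 10.25 or less for Ly6c1, Ly6c2, Ifitm1, Ifitm6 and Ly6g, at median depths of 1659 to 10420 UMIs.

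Ly6a and Ly6c1 were highest in vascular endothelium. Ly6a stood at 2322 ± 321.3 CPM (SD, n = 8 libraries) in lung aerocytes, the large flat capillary cells of gas exchange, at 2034 ± 353.6 (n = 4) in large vessel endothelium and at 1569 ± 243.1 (n = 8) in lung general capillary endothelium. Ly6c1 followed the same order, with 1724 ± 225.4, 1210 ± 311.6 and 1105 ± 229.9 CPM. These class names rest on markers alone, and capillary cells of other organs may be among the general capillaries. For both genes the ranges of 1 SD overlapped between neighbours in this order. After thinning, 86.81% of aerocytes had a Ly6a UMI and 78.89% a Ly6c1 UMI (90.24% and 86.13% unthinned, 154 of 899 barcodes left out). In proximal tubule cells the thinned shares were 7.611% and 1.077% (19.64% and 3.441% unthinned, 114 of 1303 left out).

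The endothelial pattern was tested against fibroblasts of the same libraries. For Ly6a, endothelium had a lowest, median and highest library of 1169, 1662 and 1857 CPM and fibroblasts of 435.8, 803.3 and 1030 CPM. For Ly6c1 the values were 819.3, 1066 and 1431 CPM against 170.8, 313 and 380 CPM. For Ly6e they were 1265, 1328 and 1867 CPM against 206.6, 354.1 and 461.3 CPM. In each of these genes every endothelial library lay above every fibroblast library. In the library-blocked fit (edgeR's quasi-likelihood test, Benjamini-Hochberg adjustment over all genes), 6 of the 8 members tested passed, where 47.3% of all genes did. The log2 changes were 0.98 for Ly6a (SE 0.135, adjusted p = 2e-06), 1.83 for Ly6c1 (SE 0.125, adjusted p = 1.4e-12) and 1.98 for Ly6e (SE 0.133, adjusted p = 1.3e-12). Ifitm3 was higher in endothelium by 0.46 (SE 0.114, adjusted p = 0.0014) and Ifitm2 by 0.34 (SE 0.11, adjusted p = 0.013). Without tissue wt 1, het 2 or wt 3 the adjusted p of Ifitm2 was 0.051, 0.05 and 0.068. In the same test without the library block neither Ifitm3 (log2 change 0.32, adjusted p = 0.087) nor Ifitm2 (0.23, adjusted p = 0.19) passed.

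Ifitm1 ran the other way. Its lowest, median and highest endothelial libraries were 15.22, 24.79 and 76.66 CPM, and those of fibroblasts 127.2, 174.4 and 403.1 CPM, with no overlap. The log2 change was -2.97 (SE 0.434, adjusted p = 0.00062), with fibroblasts higher in 8 of 8 libraries. Ly6c2 and Ly6d did not pass, with 18 and 35 UMIs in all fibroblasts, and Ly6g and Ifitm6 were too low to test. Of 20 interferon-stimulated genes tested, 10 were higher in endothelium, led by Ifi44 (log2 change 3.54), Xaf1 (1.15) and Rsad2 (3.26), and Ifi27l2a (-3.04) was lower, with a median of 0.64 against 0.10 over all genes. Of 8 related Ly6 and Ifitm genes tested, 4 were higher and 2 lower, where 47.3% of all genes were called in either direction. Gpihbp1, among the higher genes, was a marker of the general capillary gate, 1 of the classes within endothelium, so its call was not independent of the gates.

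**Figure D2:**
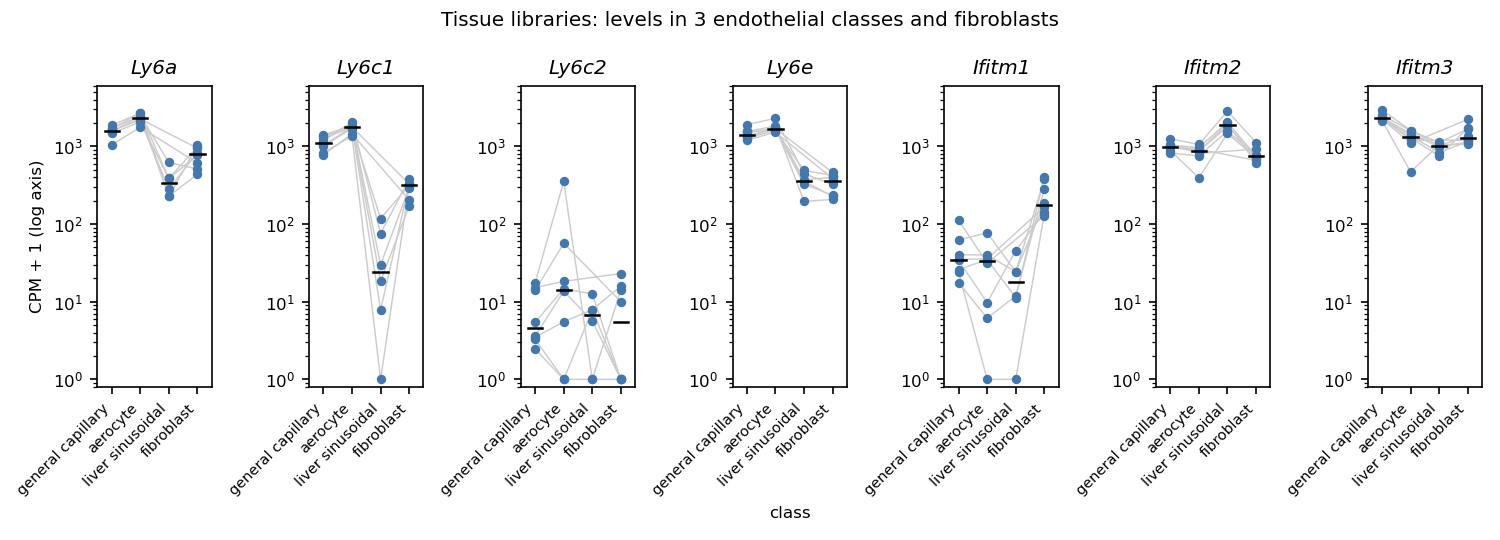
Level in CPM of Ly6a, Ly6c1, Ly6c2, Ly6e, Ifitm1, Ifitm2 and Ifitm3 in lung general capillary endothelium, lung aerocytes, liver sinusoidal endothelium and fibroblasts of the tissue libraries, where each point is 1 library, lines join classes of the same library and bars are medians. Ly6c1 falls from 1105 CPM on average in general capillaries to 40.78 CPM in liver sinusoids, while Ifitm2 is highest in liver sinusoids (1956 CPM).

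Endothelium also differed between classes named for vascular beds. Liver sinusoidal endothelium, a leaky scavenging vessel lining, was compared with lung general capillary endothelium in the 6 libraries with both. The names rest on markers without organ tags, and the class called lung capillaries may hold capillary cells of other organs. Ly6a had a lowest, median and highest library of 226.9, 333 and 621.1 CPM in liver sinusoids and 1484, 1646 and 1876 CPM in lung capillaries. Ly6c1 had 0, 23.2 and 116.9 CPM against 834.1, 1100 and 1398 CPM. Ly6e had 194.9, 362.7 and 490.8 CPM against 1276, 1450 and 1910 CPM. None of these ranges overlapped, and the lung class was higher in 6 of 6 libraries for each gene. Of 7 members tested 5 passed (background 35.8% of genes), with log2 changes of 2.43 for Ly6a (SE 0.176, adjusted p = 8e-08), 4.81 for Ly6c1 (SE 0.553, adjusted p = 0.0012) and 2.22 for Ly6e (SE 0.136, adjusted p = 7.5e-13).

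The Ifitm pair split between the same classes. Ifitm3 was higher in lung capillaries, with libraries of 2146 to 2962 CPM against 753.7 to 1124 CPM in liver sinusoids (log2 change 1.45, SE 0.098, adjusted p = 2.8e-13). Ifitm2 was higher in liver sinusoids, at 1471 to 2847 CPM against 822.6 to 1254 CPM (log2 change -0.83, SE 0.093, adjusted p = 1.3e-08). Both genes kept their direction in 6 of 6 libraries without overlap. Among 19 interferon-stimulated genes tested, 13 were higher in lung capillaries, led by Rsad2 (log2 change 2.21), Ifi47 (1.63) and Ifit1 (2.38), and 2 were lower, Bst2 (-0.64) and Ifit2 (-1.50). The list's median log2 change was 1.19, against 0.02 over all genes tested.

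The aerocyte class had more Ly6a and Ly6c1 and less Ifitm2 and Ifitm3 than the general capillaries. Across 8 libraries Ly6a had a lowest, median and highest value of 1763, 2349 and 2712 CPM in aerocytes and 1048, 1596 and 1876 CPM in general capillaries, and Ly6c1 had 1359, 1780 and 2069 CPM against 777.5, 1100 and 1398 CPM. The ranges overlapped, but aerocytes were higher in 8 of 8 libraries for both genes, with log2 changes of 0.51 (SE 0.103, adjusted p = 7.6e-05) and 0.60 (SE 0.105, adjusted p = 6.4e-06). Ifitm3 had 469.3, 1328 and 1601 CPM in aerocytes against 2146, 2341 and 2962 CPM, with no overlap and a log2 change of -1.05 (SE 0.121, adjusted p = 3.1e-10). Ifitm2 was lower in aerocytes in 8 of 8 libraries (828.2 ± 199 against 1005 ± 128.3 CPM, log2 change -0.37, SE 0.112, adjusted p = 0.011). Without the library block Ifitm2 did not pass (log2 change -0.29, adjusted p = 0.31). In total 6 of 8 members passed, where 20.8% of genes did. The 9 interferon-stimulated genes that passed were all lower in aerocytes (of 20 tested, list median -0.52 against -0.03 over all genes), led by Ifi47 (-0.71), Gbp2 (-0.81) and Rtp4 (-0.68).

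The remaining 2 calls in aerocytes also changed with the settings. Ly6c2 stood at 354.6 CPM in tissue wt 4 and at 55.66 CPM or less in the other 7 libraries, and its log2 change of 2.59 (adjusted p = 9.5e-05) had an adjusted p of 0.096 with doublets kept. Without tissue wt 2 or wt 4 it no longer passed the filter on low counts and was not tested, and without any 1 of the other libraries it was called. Ifitm1 passed at an adjusted p of 0.047 (log2 change -0.76), which became 0.69 without tissue wt 2 (log2 change -0.21) and 0.3 with doublets kept. Ly6e, at 1753 ± 239.1 against 1461 ± 224.1 CPM, was higher in 8 of 8 libraries but did not pass (adjusted p = 0.15); DESeq2 gave 0.00098.

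Ly6c2 had a different set of classes from its near copy. Plasmacytoid dendritic cells, the main makers of type I interferon, had 1223 ± 301.5 CPM (n = 6), classical monocytes 674.6 ± 161.2 (n = 8), plasma cells 391.4 ± 331.4 (n = 5), natural killer cells 328.8 ± 191.9 (n = 6) and CD8 T cells 231.1 ± 76.08 (n = 8). Below the plasmacytoid cells, the ranges of 1 SD overlapped between neighbours in this order. Of all UMIs given to either copy, Ly6c2 took 2.41% in aerocytes (92 of 3720 + 92), 0.611% in general capillaries, 2.45% in fibroblasts and 0.727% in ciliated cells. In classical monocytes it took 98.2%, in plasmacytoid dendritic cells 98.4%, in plasma cells 98.3%, in natural killer cells 97.7% and in CD8 T cells 93.8%. Across the 32 classes the log2 levels of Ly6c1 and Ly6c2 had a Pearson r of -0.287, a description over classes that share libraries.

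In T cells Ly6c2 was the member that separated CD8 from CD4 cells, where Ly6C is a known feature of CD8 memory cells. In tissue het 1, wt 1, wt 2 and wt 4 it stood at 246.3, 232.6, 382.9 and 168.7 CPM in CD8 cells and at 36.22, 0, 51.81 and 20.49 CPM in CD4 cells. All 4 libraries were higher in CD8 cells without overlap, with a log2 change of 3.34 (SE 0.306, adjusted p = 1.7e-07). It was the 1 member called of 7 tested, where 3.44% of genes were. Ly6a was at 87.63, 107, 264.2 and 319.8 CPM in CD8 cells against 63.39, 174.5, 484.8 and 669.4 CPM in CD4 cells, lower in CD8 cells in 3 of 4 libraries, and did not pass (log2 change -0.63, adjusted p = 0.09). With gates of at least 4 markers it passed (log2 change -0.70, adjusted p = 0.048). Of 18 interferon-stimulated genes tested, Ifi47 passed (log2 change 0.97). In the PBMC library, which has no replicate, CD8 cells had 355.9 CPM of Ly6c2 (exact Poisson 95% interval 272.9 to 456.3, 58 barcodes) and CD4 cells 0 UMIs (upper limit 28.01 CPM, 52 barcodes), and natural killer cells had 1027 CPM (826.6 to 1260, 45 barcodes). These intervals cover counting error only.

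Plasma cells, which secrete antibody, had more Ly6c2 and Ly6a than B cells and less Ly6d, though each of these calls was lost in some settings. In tissue het 1, null 3, wt 2, wt 3 and wt 4, Ly6c2 was at 76.57, 187.1, 592.5, 228.5 and 872.5 CPM in plasma cells and at 2.325, 21.46, 11, 55.27 and 127.3 CPM in B cells. It was higher in plasma cells in 5 of 5 libraries, though the ranges overlapped (log2 change 4.48, SE 0.833, adjusted p = 0.021). Ly6d was at 467.9, 280.7, 493.1, 222.5 and 361.4 CPM in plasma cells and at 962.6, 933.5, 1001, 847.5 and 709.6 CPM in B cells, with no overlap (log2 change -0.44, SE 0.167, adjusted p = 0.04). With doublets kept the change was -0.20 (adjusted p = 0.29), and DESeq2 gave an adjusted p of 0.088. The fitted change was smaller than the CPM ratio. Immunoglobulin genes took 28% to 46.1% of plasma cell UMIs and 0.721% to 2.49% of B cell UMIs, and the scaling of the fit allows for such a share. Ly6a passed at a log2 change of 1.35 (adjusted p = 0.0084), with 555.3 ± 291.8 against 396.9 ± 150.4 CPM, although by CPM it was higher in 3 of 5 libraries. These 3 were the members called of 8 tested, where 28.6% of genes were, and none passed without tissue het 1 (adjusted p of Ly6a 0.13, Ly6c2 0.056 and Ly6d 0.065). Without null 3 or wt 3 only Ly6a passed. Ly6e stood at 642.3 ± 170.9 CPM in plasma cells and 1268 ± 167.9 CPM in B cells, lower in 5 of 5 libraries without overlap, but did not pass on the scale of the fit (log2 change -0.14, adjusted p = 0.55). Ly6c1, Ifitm2 and Ifitm3 did not pass either (adjusted p = 0.83, 0.74 and 0.88), nor did Ifitm1, with 24 UMIs in all plasma cells. Of 13 interferon-stimulated genes tested, Bst2 (log2 change 2.44) and Zbp1 (2.02) were higher in plasma cells and Ifi47 (-1.09) lower.

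Ly6d, an early mark of the B lineage, was highest in plasmacytoid dendritic cells and B cells. The levels were 2120 ± 839.5 CPM (n = 6) and 903.2 ± 146.8 CPM (n = 8), and plasma cells came next among leukocytes. Its other tissue classes above 100 CPM were carried by few barcodes. Alveolar type 1 cells had a mean of 400 ± 800 CPM from 209 UMIs in 3 of 38 barcodes of tissue wt 2, with 0 UMIs in the other 3 libraries, and club cells had 1207 CPM in wt 2 from 11 of 78 barcodes and 0 in het 1, null 2 and null 3. Mesothelial cells had 158.4 ± 218.9 CPM (n = 6), highest in wt 2 (534.7 CPM from 2 of 30 barcodes) and null 3 (310.3 CPM from 4 of 47 barcodes). Squamous epithelium, in which Ly6d marks the surface, could not be tested. Its barcodes numbered 12 in all, with 7586 CPM in null 3, 5957 in wt 3, 3370 in wt 4, 0 in the single barcode of het 1 and 3513 in a library without a group.

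Plasmacytoid dendritic cells had more Ly6c2 and Ly6e and less Ifitm2 and Ifitm3 than type 2 dendritic cells. In the 6 libraries with both, plasmacytoid cells had a lowest, median and highest Ly6d level of 1085, 2157 and 3009 CPM against 0, 3.54 and 127.5 CPM in type 2 cells. Ly6c2 had 694, 1233 and 1623 CPM against 0, 23.47 and 151 CPM. Ly6e had 1718, 2101 and 2545 CPM against 437.5, 466.1 and 892.5 CPM. None of these ranges overlapped, with log2 changes of 4.63 for Ly6c2 (SE 0.627, adjusted p = 0.00089) and 1.72 for Ly6e (SE 0.181, adjusted p = 2.3e-08). Ly6d had 10 UMIs in all type 2 cells, against 904 in plasmacytoid cells, and entered the test through the latter alone, so no p is given for it. Ly6a was higher in plasmacytoid cells in 6 of 6 libraries (465.5 ± 416 against 155.8 ± 269.4 CPM, log2 change 1.91, adjusted p = 0.032). Tissue wt 2 held the highest type 2 value of Ly6a, 698.5 CPM, and without it the log2 change was 3.10. The change did not pass without tissue het 2 or wt 4 (adjusted p = 0.059 and 0.11) or with gates of at least 4 markers (0.061).

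Ifitm3 and Ifitm2 went the opposite way in these dendritic cells. Ifitm3 had a lowest, median and highest library of 0, 80.81 and 1058 CPM in plasmacytoid cells and 1327, 1738 and 3160 CPM in type 2 cells (log2 change -3.50, SE 0.675, adjusted p = 0.0083). Ifitm2 had 0, 62.2 and 345.1 CPM against 573.7, 720 and 1359 CPM (log2 change -3.11, SE 0.38, adjusted p = 1.1e-05). The top plasmacytoid value of both was tissue wt 2, and neither range overlapped. Ifitm1 stood at 12.01 ± 19.49 CPM against 148 ± 149 CPM, with 8 UMIs in all plasmacytoid cells, and is likewise given without a p. Of 7 members tested 7 were called, where 44.9% of genes were, on 121 plasmacytoid and 201 type 2 barcodes. They were Ly6a, Ly6c2, Ly6e, Ifitm2 and Ifitm3, and also Ly6d and Ifitm1 on the few UMIs given above. Of 8 other interferon-stimulated genes tested 5 passed, and all 5 were higher in plasmacytoid cells, among them Bst2 (log2 change 3.69), which marks these cells, Stat2 (1.34) and Trim30a (0.95).

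Ly6e, a broadly expressed member that affects virus entry, ran from 122.2 CPM in proximal tubule cells to 2080 ± 316.7 CPM in plasmacytoid dendritic cells. After these came aerocytes (1753 ± 239.1, n = 8), renal intercalated cells (1598 ± 298.9, n = 4), general capillaries (1461 ± 224.1, n = 8), large vessels (1368 ± 49.61, n = 4) and B cells (1366 ± 189.6, n = 8), and the ranges of 1 SD overlapped between neighbours in this order. Epithelial exceptions were also seen for Ly6a and Ly6c1. Loop of Henle cells held Ly6a at 1571, 1096 and 1354 CPM in null 2, wt 1 and wt 2, on 78 barcodes, against a proximal tubule mean of 93.28. Ciliated airway cells held Ly6c1 at 628.8 ± 368.9 CPM, from 132.8 in wt 4 to 1081 in null 3, and it was detected in 49.17% of them (27.16% after thinning, 14 of 453 left out). The hepatocyte mean of Ly6a, 711.8 ± 1121 CPM, came from 214 UMIs in 2 of 23 barcodes of wt 1, whereas the other libraries had 45.33 and 84.15 CPM.

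Ly6g, the antigen by which neutrophils are depleted, was barely captured. Neutrophils had 28.52 ± 22.12 CPM (n = 8), and their lowest, median and highest libraries were 0, 26.19 and 61.29 CPM, with UMIs in 6 of 8 libraries. Only 3.197% of neutrophil barcodes had a Ly6g UMI (2.507% after thinning, 497 of 2608 left out). Summed over libraries this was 137 of 4756440 UMIs, against 0 of 4219654 in classical monocytes. The pooled neutrophil level, 28.8 CPM, was 40.51 times the limit of 3 counts over all classical monocytes (0.711 CPM). This ratio leaves out the counting error of the neutrophil count. Ly6g passed the filter on low counts through neutrophils alone, so no p is given for it.

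**Figure D3:**
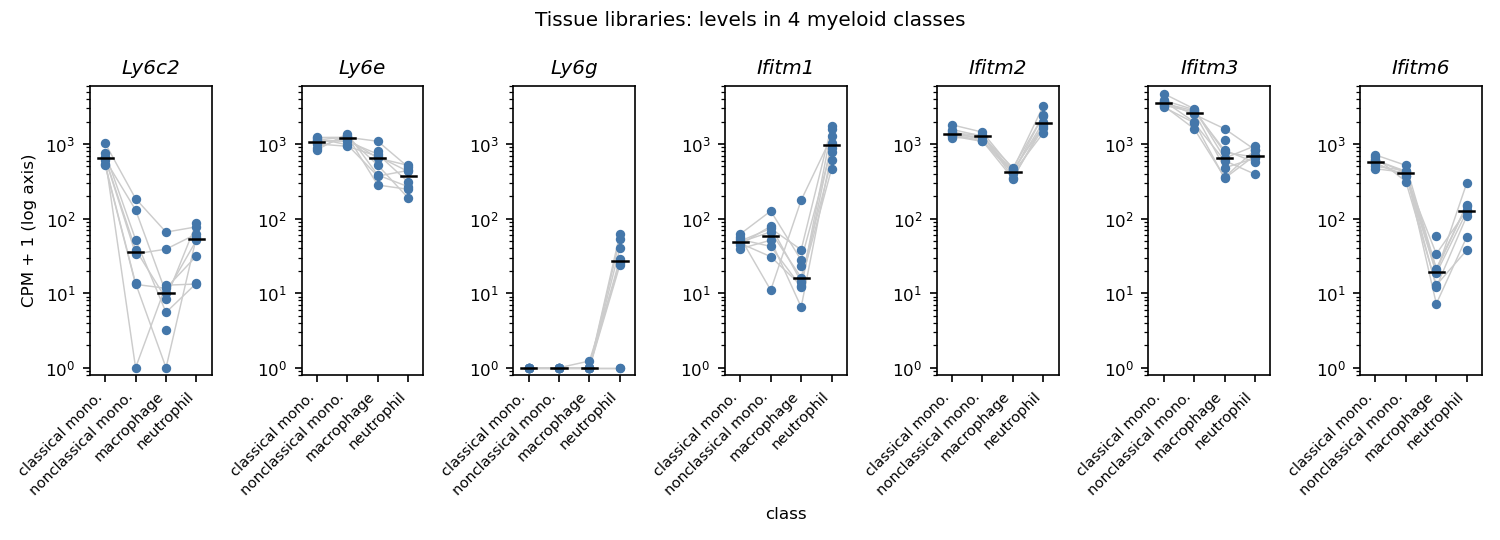
Level in CPM of Ly6c2, Ly6e, Ly6g, Ifitm1, Ifitm2, Ifitm3 and Ifitm6 in classical monocytes, nonclassical monocytes, macrophages and neutrophils of the tissue libraries, where each point is 1 library, lines join classes of the same library and bars are medians. Of these 4 classes neutrophils are highest in Ifitm1 and classical monocytes in Ly6c2, and Ifitm6 steps down from monocytes to neutrophils to macrophages.

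The highest tissue class of each Ifitm member was a myeloid one. Classical monocytes had the highest Ifitm3 level of any class, 3658 ± 508.1 CPM, and the highest Ifitm6 level, 581.7 ± 82.05 CPM. Neutrophils had the highest Ifitm2 level, 2098 ± 590 CPM, and the highest Ifitm1 level, 1044 ± 453.6 CPM. For Ifitm2, liver sinusoidal endothelium (1956 ± 491.2) lay within the neutrophil spread. A single library had 25 barcodes gated as basophils or mast cells, with 5844 CPM of Ifitm1, and this class had no replicate.

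Neutrophils were compared with classical monocytes in 8 libraries. Ifitm1 had a lowest, median and highest library of 466, 961.9 and 1746 CPM in neutrophils and 38.44, 48.22 and 61.1 CPM in monocytes. Ifitm3 had 392.3, 685.1 and 945 CPM against 3120, 3596 and 4738 CPM. Ifitm6 had 36.79, 125.9 and 298.8 CPM against 465.3, 579 and 713.9 CPM. All 3 separated without overlap, Ifitm1 upward (log2 change 4.66, SE 0.236, adjusted p = 2.1e-14) and Ifitm3 (-2.13, SE 0.162, adjusted p = 3.9e-11) and Ifitm6 (-1.85, SE 0.207, adjusted p = 3.9e-08) downward. Ifitm2 was higher in neutrophils in 8 of 8 libraries (2098 ± 590 against 1424 ± 194 CPM, log2 change 0.82, SE 0.166, adjusted p = 0.00018).

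Besides Ly6g, which had UMIs in neutrophils alone, the other 9 members passed in edgeR's quasi-likelihood test, where 57.3% of genes did. Ly6c2 fell from 674.6 ± 161.2 CPM in monocytes to 48.2 ± 27.63 in neutrophils (log2 change -3.54, SE 0.249, adjusted p = 1.4e-11) and Ly6e from 1053 ± 139 to 360.4 ± 123.5 (log2 change -1.32, SE 0.17, adjusted p = 4.1e-07). Ly6a, Ly6c1 and Ly6d were higher in neutrophils by 1.35, 1.85 and 1.33 on the log2 scale (adjusted p = 9.2e-05, 1.6e-05 and 0.0029). Their levels there, 99.48, 36.34 and 45.18 CPM, were low, and those of Ly6a and Ly6d were near the proximal tubule values (93.28 and 57.89 CPM). Blood neutrophils had 0 UMIs of Ly6a in the 37 barcodes of the PBMC library (upper limit 112.3 CPM) and in the 100 barcodes of the ntCZC library with neutrophils. Of 20 interferon-stimulated genes tested, 10 were lower in neutrophils, led by Zbp1 (log2 change -1.89), Ifi27l2a (-1.47) and Mx1 (-2.69), and 2 were higher, Rtp4 (1.21) and Isg15 (2.13). Their median was -0.88 against -0.16 over all genes.

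Nonclassical monocytes, the patrolling subset, had less Ly6c2 than classical monocytes, the property by which these subsets are sorted. The lowest, median and highest libraries were 0, 35.06 and 184.2 CPM against 514.9, 643.9 and 1025 CPM, lower in 8 of 8 libraries without overlap (log2 change -3.73, SE 0.306, adjusted p = 2.2e-05). Ifitm3 was lower too, at 1603, 2584 and 2963 CPM against 3120, 3596 and 4738 CPM, also without overlap (log2 change -0.66, SE 0.074, adjusted p = 1.1e-08). Ifitm6 was lower in 8 of 8 libraries (408.2 ± 59.85 against 581.7 ± 82.05 CPM, log2 change -0.53, SE 0.093, adjusted p = 1.1e-05) and Ifitm2 in 7 of 8 (1234 ± 124.5 against 1424 ± 194 CPM, log2 change -0.27, SE 0.07, adjusted p = 0.0016).

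Of 8 members tested 5 were called, these 4 and Ly6d, where 34.2% of genes were. Ly6d stood at 14.52 ± 15.09 against 21.67 ± 29.03 CPM, with 22 UMIs in all nonclassical cells, and is given without a p. Its fitted log2 change of -1.20 turned to 0.27 with doublets kept. Ly6e, at 1162 ± 153.4 against 1053 ± 139 CPM, was not called (adjusted p = 0.47). Ifitm1, at 59.14 ± 35.11 against 48.98 ± 6.952 CPM, was not called either (log2 change 0.18, adjusted p = 0.56). Of 15 interferon-stimulated genes tested 14 were lower in nonclassical cells, led by Ifi27l2a (log2 change -1.19), Isg15 (-2.34) and Trim30a (-1.25). Their median log2 change was -1.24 against -0.01 over all genes.

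Tissue macrophages had less of several members that were high in classical monocytes. Ifitm6 had a lowest, median and highest library of 6.2, 17.69 and 32.58 CPM in macrophages and 465.3, 579 and 713.9 CPM in classical monocytes (log2 change -5.16, SE 0.193, adjusted p = 1.2e-14). Ly6c2 had 0, 9.84 and 64.86 CPM against 514.9, 643.9 and 1025 CPM (log2 change -5.60, SE 0.592, adjusted p = 0.00023). Ifitm3 had 345.8, 621 and 1600 CPM against 3120, 3596 and 4738 CPM (log2 change -2.52, SE 0.239, adjusted p = 2.6e-05). None of the 3 overlapped, and macrophages were lower in 8 of 8 libraries. Ifitm2 (log2 change -1.77, adjusted p = 4.3e-11) and Ly6e (-0.92, adjusted p = 4.8e-05) were lower as well. Ly6a was higher in 7 of 8 libraries (61.69 ± 42.13 against 40.55 ± 29.82 CPM, log2 change 0.65, adjusted p = 0.025), but did not pass without tissue wt 1, het 2, wt 3 or wt 4. These were the 6 members called of 9 tested, against 32.5% of genes. Among the interferon-stimulated genes 3 were higher in macrophages, led by Bst2 (1.14), and 3 lower, led by Ifi27l2a (-1.44), of 22 tested.

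**Figure D4:**
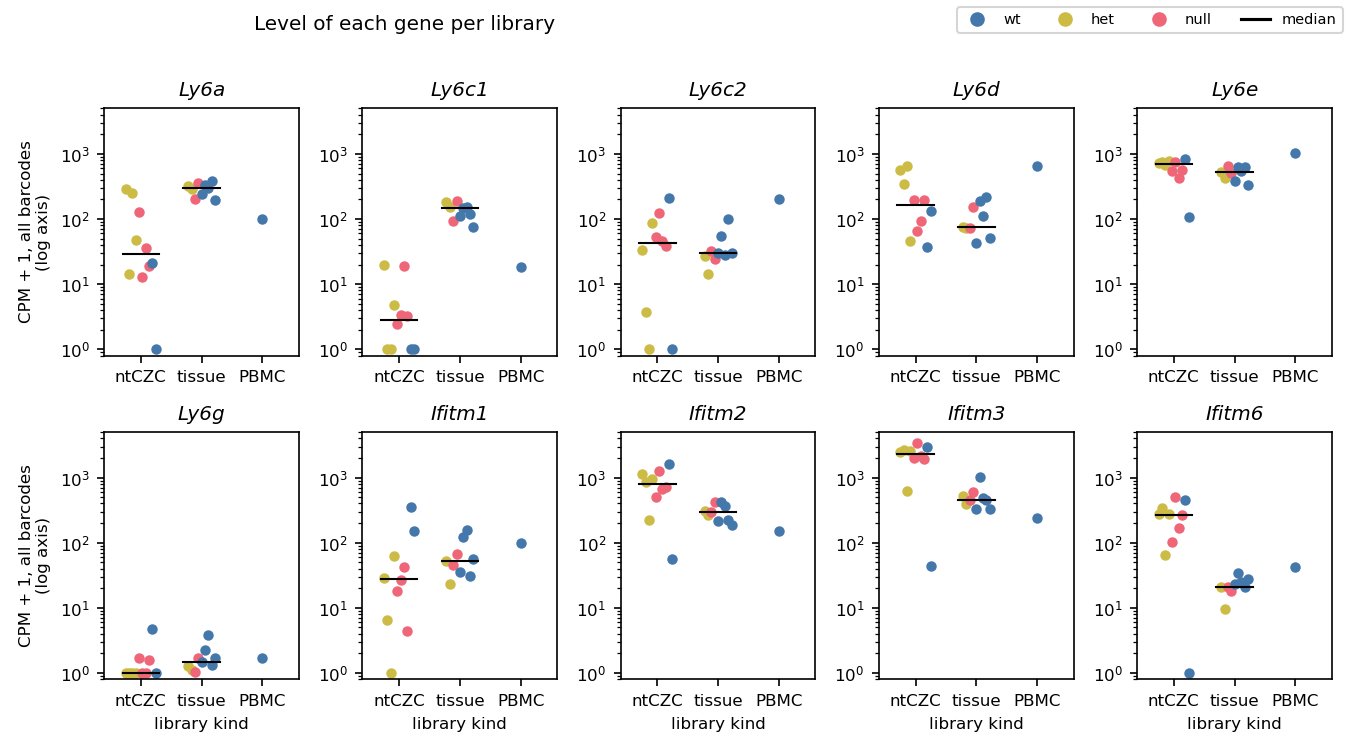
Level of the 10 genes in each library over all barcodes (CPM + 1, log axis), for ntCZC, tissue and PBMC, coloured by wt, het and null, with bars at the medians. Ifitm6 and Ifitm3 are higher and Ly6c1 lower in most ntCZC libraries than in tissue libraries, and ntCZC wt 3 is the low point of Ifitm2, Ifitm3 and Ifitm6.

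Summed over all barcodes, the circulating cells had more Ifitm2, Ifitm3 and Ifitm6 than tissue and nearly no Ly6c1. In such sums fewer cells of a type and less RNA per cell cannot be told apart. Ly6c1 had a lowest, median and highest library of 0, 1.828 and 18.91 CPM in ntCZC (45 UMIs in all) and 75.14, 146.6 and 189.7 CPM in tissue, with no overlap. Ifitm6 had 0, 268.7 and 497 CPM against 8.581, 20.12 and 32.74 CPM, and Ifitm3 had 43.33, 2322 and 3379 CPM against 323.9, 448.8 and 1002 CPM. The ntCZC library wt 3 was the lowest for both and the cause of overlap for Ifitm6. Of 9 members tested 5 were called, Ifitm6, Ifitm3, Ifitm2, Ly6a and Ly6c1, where 65.7% of all genes were. Ly6c1 entered the test through tissue alone and is given without a p. The log2 changes were 3.36 for Ifitm6 (SE 0.404, adjusted p = 5.7e-07), 1.96 for Ifitm3 (SE 0.379, adjusted p = 0.00014), 1.30 for Ifitm2 (SE 0.293, adjusted p = 0.00061) and -1.91 for Ly6a (SE 0.583, adjusted p = 0.0077). With another scaling (RLE) the median of all genes moved by -0.241 and the share of calls that were higher in ntCZC from 41.6% to 29.4%, with the same number of members called. Without ntCZC wt 3 Ifitm6, Ifitm3, Ifitm2 and Ly6a passed, and their changes were 3.40, 2.04, 1.35 and -1.90.

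These changes ran alongside the classes in the libraries. Of the ntCZC barcodes, 829 were gated as nonclassical monocytes, 260 as B cells, 218 as classical monocytes, 146 as macrophages, 131 as T cells, 110 as neutrophils and 1 as endothelium. The part of this makeup in the sums was not tested by itself. Ly6a had 0, 27.82 and 287.8 CPM in ntCZC against 193.9, 293.9 and 389.2 CPM in tissue, Ly6d 36.1, 163.6 and 642.5 against 42.53, 73.73 and 217.4 CPM, and Ly6c2 0, 41.1 and 212.9 against 13.34, 29.05 and 98.45 CPM, as lowest, median and highest libraries. All 3 overlapped between the kinds, and Ly6d and Ly6c2 did not pass (adjusted p = 0.069 and 0.33), nor did Ly6e and Ifitm1 (0.22 and 0.73). Ly6d passed without ntCZC wt 1, het 4 or null 3 or without tissue wt 2 (adjusted p = 0.035, 0.044, 0.049 and 0.049).

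Of 33 related Ly6-domain and Ifitm genes listed, 31 were in the files and 10 were tested. Psca, Lypd8 and Ly6f had 0 UMIs in all 10 ntCZC libraries and 26531, 6927 and 2586 UMIs in tissue, so they entered the test through tissue alone and no fitted change is given for them. Gpihbp1 had 24 UMIs in ntCZC, all in 1 library, and 28286 in tissue, and Ly6g5b had 14 and 9958. Cd59a had 16 and 7431, and Lynx1 had 25 and 1811. All 7 averaged under 5 UMIs a library in ntCZC, so they are given as counts and not as calls. Ly6i and Plaur passed and were higher in ntCZC (log2 changes of 3.76 and 0.92), where 65.7% of all genes passed. Gpihbp1, which anchors lipoprotein lipase on capillary walls, was itself a marker of the general capillary gate. Of the 22 interferon-stimulated genes, 7 were higher in ntCZC, led by Ifi27l2a (log2 change 2.53), Zbp1 (2.03) and Irf7 (1.77), and 3 were lower, Ifi44 (-3.96), Ifit1 (-1.77) and Rsad2 (-1.60), with a median of 0.38 against -0.13 over all genes. The share called, 10 of 22, was below the 65.7% of all genes.

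**Figure D5:**
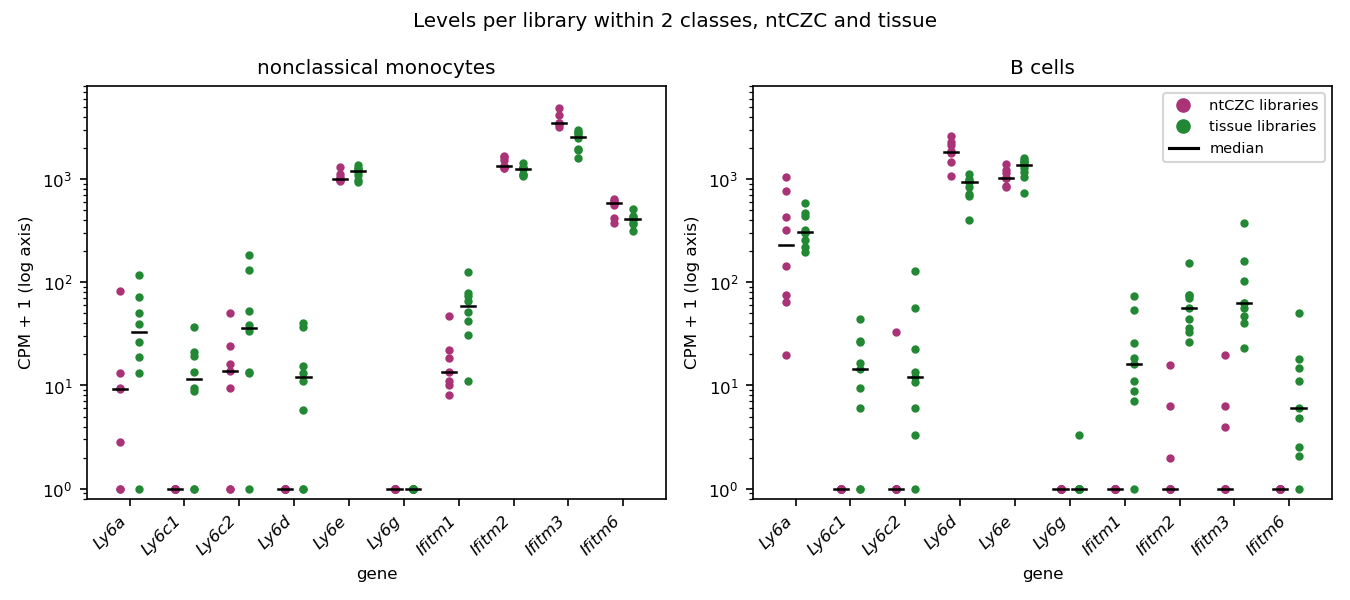
Level of the 10 genes in CPM within nonclassical monocytes and within B cells, for ntCZC and tissue libraries, where each point is 1 library and bars are medians. Ly6d is higher and Ifitm2 and Ifitm3 lower in ntCZC B cells, and Ifitm3 is higher in ntCZC nonclassical monocytes.

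Within nonclassical monocytes Ifitm3 was higher in the circulating libraries. It had a lowest, median and highest library of 3199, 3473 and 4863 CPM in ntCZC (n = 7) and 1603, 2584 and 2963 CPM in tissue (n = 8), with no overlap. The scaled log2 change was smaller than the CPM ratio, 0.35 (SE 0.126, adjusted p = 0.028), and did not pass without tissue wt 1 (adjusted p = 0.054) or ntCZC null 1 (0.069). Ifitm1 had 7.158, 12.47 and 46.61 CPM against 9.982, 57.84 and 125.3 CPM, overlapping, with a log2 change of -2.04 (SE 0.426, adjusted p = 0.0011). The counts in ntCZC were few for Ifitm1 (67 UMIs), Ly6c2 (56) and Ly6a (37). Ly6c2 (15.62 ± 17.22 against 57.52 ± 65.16 CPM, log2 change -2.14, adjusted p = 0.01) and Ly6e (1059 ± 126.9 against 1162 ± 153.4 CPM, log2 change -0.40, adjusted p = 0.0074) were lower in ntCZC. Ly6e did not pass without ntCZC het 2 (0.058) or with no filter on low counts (0.26). Ly6a was called at an adjusted p of 0.041 (15.99 ± 29.08 against 41.54 ± 38.01 CPM, log2 change -1.85) but not in 12 of the fits that left out 1 library, with adjusted p of 0.051 to 0.15.

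Of 7 members tested in these monocytes 5 passed, where 36.7% of genes did. Ifitm2 (1445 ± 170 against 1234 ± 124.5 CPM) and Ifitm6 (541.1 ± 104.4 against 408.2 ± 59.85 CPM) did not (adjusted p = 0.89 and 0.51). Ly6c1 and Ly6d had 0 UMIs in all 7 ntCZC libraries, and 32 and 22 UMIs in tissue, a mean of 12.83 and 14.52 CPM. Proximal tubule cells held 93.28 CPM of Ly6a, 8.109 of Ly6c2 and 7.657 of Ifitm1 in the tissue libraries, and the part of free RNA in the tissue monocyte levels was not tested. Median depth was 3163 to 5803 UMIs in ntCZC and 781 to 3614 in tissue monocytes. Among interferon-stimulated genes, Zbp1 was higher in ntCZC (log2 change 1.22) and Trim30a lower (-0.58).

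B cells of the circulating libraries had more Ly6d. Its lowest, median and highest libraries were 1067, 1845 and 2606 CPM in ntCZC (n = 8) and 398.4, 933.5 and 1120 CPM in tissue (n = 9), overlapping only where the lowest ntCZC library lay under the highest tissue library. The log2 change was 1.13 (SE 0.172, adjusted p = 2.8e-05). Ifitm2 and Ifitm3 were at 0 in 5 of 8 ntCZC libraries, with 3 and 5 UMIs in all. In tissue B cells they had a lowest, median and highest library of 25.12, 55.76 and 152.2 CPM and of 22.22, 61.98 and 374.2 CPM, above every ntCZC library. Proximal tubule cells of tissue held 86.51 CPM of Ifitm2 and 62.57 CPM of Ifitm3, and the part of free RNA in this difference was not tested. Both genes entered the test through tissue alone, so no p is given for them. Of 5 members tested 3 were called, Ly6d, Ifitm2 and Ifitm3, where 40.7% of genes were. Ly6a (357.6 ± 374.1 against 343.3 ± 127.4 CPM) and Ly6e (1071 ± 190.9 against 1296 ± 275.3 CPM) did not pass (adjusted p = 0.78 and 0.17). Among interferon-stimulated genes, Ifi27l2a was higher in ntCZC B cells (log2 change 1.46).

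The PBMC library gave the levels of blood cells that were not sorted for ZsGreen, from a younger mouse and without a replicate. Its B cells had 2277 CPM of Ly6d (2120 to 2443, 200 barcodes) and 2233 CPM of Ly6e (2077 to 2398), and Ifitm3 had 0 UMIs (upper limit 10.84 CPM). Its neutrophils had 1736 CPM of Ifitm1 (1315 to 2249, 37 barcodes), 2345 CPM of Ifitm2 (1851 to 2931) and 1 UMI of Ly6g. Its nonclassical monocytes had 3193 CPM of Ifitm3 (2592 to 3891, 16 barcodes), 2085 CPM of Ly6e (1606 to 2663), 1890 CPM of Ifitm2 (1435 to 2443) and 521.3 CPM of Ifitm6 (298 to 846.6). The 1 ntCZC library with enough neutrophils (100 barcodes) had 2827 CPM of Ifitm1, 3176 of Ifitm2, 800 of Ifitm3, 276.7 of Ifitm6 and 42.11 of Ly6g.

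Other circulating classes were seen in few libraries. ntCZC classical monocytes (het 4, null 2, null 4 and wt 1) had Ifitm3 at 4948, 4855, 4890 and 4218 CPM and Ly6c2 at 263.7, 324.6, 381.9 and 597.2 CPM. Tissue classical monocytes had 3120 to 4738 CPM and 514.9 to 1025 CPM. ntCZC barcodes gated as macrophages (het 1, het 2, het 3, null 1 and null 4) had Ifitm6 at 333.5, 207.9, 181.9, 116.8 and 182.7 CPM, above all 9 tissue macrophage libraries (6.2 to 57.38 CPM), and Ifitm3 at 4189, 1864, 1852, 3418 and 1994 CPM against 345.8 to 1600 CPM. These classes were not tested.

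Whether Nalcn dose moved the members in blood was asked by comparing null with het, with 4 libraries each. Ifitm3 was at 1993, 3379, 2145 and 1909 CPM in null 1 to 4 and at 2500, 2633, 622.5 and 2549 CPM in het 1 to 4. Ly6a was at 125.5, 11.73, 35.46 and 17.83 CPM in null and at 287.8, 13.46, 254.2 and 46.14 CPM in het. Ly6d was at 197.6, 63.83, 91.6 and 197.2 CPM in null and at 561.9, 339.3, 642.5 and 44.99 CPM in het. The groups overlapped in each gene, and het 3 was the lowest library for Ifitm3. In edgeR's quasi-likelihood test 0 of 9 members passed, with 0% of 9379 genes called, 654 genes at an unadjusted p under 0.05 and 13 genes called by DESeq2. The largest log2 changes were 2.81 for Ly6c2 (SE 1.377, adjusted p = 0.77) and -2.45 for Ly6a (SE 1.281, adjusted p = 0.78), so the errors leave room for changes of several-fold. The fit allowed for sex, and therefore its changes can differ from the ratio of the means. Ifitm2 had 789.8 ± 340 CPM in null and 786.2 ± 397.9 in het, and a log2 change of 1.11 (SE 0.62). The wt group had 2 libraries, with Ifitm3 at 2957 CPM in wt 1 and 43.33 in wt 3.

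In tissue, het and null libraries together (n = 4) were compared with wt in 4 cell groups, and 0 members passed in any. In macrophages Ifitm3 was at 478.2, 345.8, 357.1 and 645 CPM in het 1, het 2, null 2 and null 3 and at 597.1, 1600, 821.7, 772.8 and 1126 CPM in wt 1 to 5. Ly6e was at 382.8, 281, 370.4 and 646.7 CPM against 520.2, 684, 731.2, 1089 and 798.9 CPM. Ly6a was at 25.95, 24.8, 25.08 and 63.79 CPM against 39.42, 104.5, 70.59, 139.4 and 44.14 CPM. In each gene null 3 alone among the deleted libraries reached into the wt range, and the log2 changes were -1.19 (SE 0.374), -0.84 (SE 0.253) and -1.28 (SE 0.416), each with an adjusted p of 1, as was that of the other 6 members tested. Of 21 interferon-stimulated genes tested in these macrophages 0 were called, and their median log2 change was -1.50 against -0.03 over all genes. Their summed level was 737.8 to 1175 CPM in the deleted libraries and 1166 to 4758 CPM in wt, highest in wt 2. Of 7939 genes 0% were called, with 294 at an unadjusted p under 0.05 and 8 called by DESeq2.

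The other 3 cell groups gave the same count of members called. In endothelium Ly6a was at 1659, 1481, 1169 and 1706 CPM in het 1, het 2, null 2 and null 3 and at 1857, 1834, 1666, 1518 and 1339 CPM in wt 1 to 5, and Ifitm3 at 2316, 2017, 2161 and 2448 against 1925, 2029, 1966, 2099 and 1418 CPM, both overlapping (log2 changes -0.07 and 0.30, adjusted p = 1 and 0.82). In fibroblasts Ly6a was at 509.6, 833.9, 611.1 and 1030 CPM against 435.8, 946.9, 772.7 and 987.1 CPM in wt 1 to 4 (log2 change -0.09, adjusted p = 1). In T cells Ly6c2 was at 204.1, 133.4, 135 and 143.3 CPM against 146.2, 146.6, 114.2 and 92.66 CPM (log2 change 0.40, adjusted p = 0.91). The groups overlapped in each of these. Among the other members tested, the largest log2 changes were -2.65 for Ly6d in endothelium (SE 1.483, adjusted p = 0.84), 0.70 for Ifitm1 in fibroblasts (SE 0.379, adjusted p = 0.99) and -1.84 for Ly6d in T cells (SE 1.475, adjusted p = 0.98), again with overlap. Genes called were 0% of 11835, 3673 and 8564 tested in endothelium, fibroblasts and T cells, where 740, 179 and 483 had an unadjusted p under 0.05 and DESeq2 called 8, 0 and 19.

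The genes most like each member across the 32 tissue classes were found by Pearson correlation of log2(CPM + 1) among 9434 genes, as a description over classes that share libraries and depth. Ly6a was closest to Ly6c1 (r = 0.726), and Ly6c1 to Plvap (0.797), Edn1 (0.796) and Tspan12 (0.795). For Ly6c2, Itgb7 (0.796) and Runx3 (0.767) were among the closest. Ly6d was closest to Fcrla (0.758) and to its relative Ly6k (0.731). Ly6g was closest to the granule genes Ngp (0.862) and Camp (0.846), and Ifitm1 to Il1r2 (0.695), which was a marker of the neutrophil gate. Ifitm3 was closest to Ifitm2 (0.921) and Ifitm6 to Mefv (0.937), the pyrin gene. The Ifitm2 and Ifitm3 pair was thus the closest among the members, although their order was opposite in general capillary against liver sinusoidal endothelium and in neutrophils against classical monocytes.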

How the data were processed

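Single cells were captured with droplet 3' chemistry (10x), and the authors deposited 1 matrix of filtered UMI counts per library (mm10). The submitters' processing notes name Cell Ranger 2.1.1 and Seurat, whereas the matrix headers name version 3.0.2, and the study's doublet removal is described for later analysis objects, so doublets were treated here as possibly present. Per-sample columns left unused numbered 0. Barcodes under 200 genes or over 25% mitochondrial UMIs were dropped. In tissue libraries the top Scrublet scores (scanpy 1.11.5), at 0.8% per 1000 barcodes up to 25%, were taken out. No doublet caller was run on the small ntCZC and PBMC libraries. Barcodes were gated by at least 3 class markers, which included no member, and many kept tissue barcodes stayed ungated. Counts were summed per library and class, for classes with at least 20 barcodes (10 for rare classes and blood).

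Sums were compared with edgeR 4.0.16 (quasi-likelihood test, TMM scaling, filterByExpr, Benjamini-Hochberg threshold 0.05), with sex as a covariate between library kinds or genotypes and library as a block between classes. After the data were seen, no p was given for members whose lower side averaged under 5 UMIs a library. Related genes below that limit in ntCZC against tissue were given as counts only. CPM values were scaled to the total UMIs of that sum. Where libraries are said not to overlap, no share over all genes is given, so this describes the named genes only. Shares were thinned to 1000 UMIs. Intervals are 95% and, like limits of 3 counts for a count of 0, cover counting error only. Alternatives were DESeq2 1.42.0, RLE scaling, no filter, other gates, doublets kept, no covariate or block, a replicate block, thinning to 500 UMIs and each library left out. On simulated counts 94.33% of 194 genes changed by a log2 of 2 were recovered for ntCZC against tissue (11417 genes) and 99.454% of 183 for nonclassical against classical monocytes (4012 genes).

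The members and gene lists were chosen with earlier results of these data known. By the rule for named genes, all members were named with their values, in full where a result turned on them, with the list genes that had the smallest p (largest change for the related families), apart from a few results that are not reported here. Tissue libraries 1 and 2 without a group carry a title and a strain label of different genotypes and entered no comparison. Deletion calls could not be checked at the Nalcn locus by these counts.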

Additional observations from a re-analysis of the deposited data

Results flagged for a closer look

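Of 110 groups of libraries tested, 23 held a highest or lowest library that stood apart from the rest. The groups share libraries, and some rest on a few UMIs, so no rate by chance is set beside this count. Tissue wt 2 was that library in 11. For Ifitm3 it was highest in macrophages (1600 CPM, next 821.7), in B cells (374.2, next 158.8), in type 2 dendritic cells (3160, next 1979), in plasmacytoid dendritic cells (1058, next 226) and over all barcodes (1002, next 593.9). For Ifitm2 it was highest in B cells (152.2, next 75.11) and plasmacytoid cells (345.1, next 121.1), and for Ifitm1 in endothelium (76.66, next 40.05). In type 2 dendritic cells it was highest for Ly6a (698.5, next 127.5) and Ly6c2 (151.0, next 42.5), and in neutrophils for Ly6d (166.0, next 49.05). The sum of 22 interferon-stimulated genes was highest in the same library over all barcodes (2184 CPM, next 927.2 in wt 4) and in macrophages (4758 CPM, next 2285 in wt 4). In B cells wt 4 was higher in that sum (1164 CPM against 1010), with 38.91 CPM of Ifitm3. What sets wt 2 apart was not tested.

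Other libraries stood apart in single groups. Tissue wt 4 was highest for Ly6c2 in aerocytes (354.6 CPM, next 55.66), Ifitm6 in neutrophils (298.8, next 152.1) and Ly6d in type 2 dendritic cells (127.5, next 14.58). Tissue wt 1 was lowest in aerocytes for Ifitm2 (392.0, next 753.5) and Ifitm3 (469.3, next 1100). Tissue null 3 was highest for Ifitm3 in general capillaries (2962, next 2524) and classical monocytes (4738, next 3851). Among ntCZC nonclassical monocytes null 1 was highest for Ly6a (81.06, next 12.23) and Ly6e (1322, next 1109) and het 1 for Ifitm1 (46.61, next 21.01). Among ntCZC B cells null 2 was highest for Ifitm2 (14.8, next 5.265) and het 2 for Ifitm3 (18.89, next 5.265), at a few UMIs each.

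Of the 2 tissue libraries that entered no comparison, library 2 without a group (female, 647 days) lay above all 9 grouped tissue libraries in 8 members over all barcodes. The values, with the highest grouped library in brackets, were 157.1 CPM for Ifitm1 (155.5), 511.6 for Ifitm2 (427.3), 1028 for Ifitm3 (1002), 33.28 for Ifitm6 (32.74), 580.8 for Ly6a (389.2), 238.5 for Ly6c1 (189.7), 107.0 for Ly6c2 (98.45) and 794.3 for Ly6e (648.0).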

How the results depend on the processing

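Depth limits what can be said of members at a few UMIs and of shares in shallow classes. The number of members called was within 1.5 times that given in the report in 247 of 258 recomputations. Without the library block 3 passed in aerocytes against general capillaries and 3 in nonclassical against classical monocytes, where some members were no longer tested. In CD8 against CD4 cells 2 passed with gates of at least 4 markers. In B cells of ntCZC against tissue 5 passed with no filter, which tested more genes, and 1 with no sex covariate, and in nonclassical monocytes of ntCZC against tissue 2 with no sex covariate. The fits with no sex covariate tested fewer genes, and members called in the main comparison were among those left out. Leaving out each library gave 3 to 5 members in nonclassical monocytes of ntCZC against tissue and 0 to 3 in plasma cells. Ly6d in nonclassical against classical monocytes reversed to 0.27 with doublets kept, and the cause was not tested. Of 1977 recomputed log2 changes of single members, 1900 kept direction and side of the threshold, whereas 132 of 260 recomputed shares of positive barcodes (not thinned, or thinned to 500 UMIs) moved beyond the spread between libraries. DESeq2 called 9 members in neutrophils, 7 in macrophages and 4 in nonclassical monocytes.

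Genes called over all genes moved by over 1.5 times in some settings. With no filter these were 311 against 192 in CD8 and CD4 cells, 2759 against 1507 in B cells, 3747 against 1492 in nonclassical monocytes of both kinds and 1123 against 679 in dendritic cells, and where 0 were called they were 5 between null and het, 80 in T cells, 29 in fibroblasts and 1 each in endothelium and macrophages. With no library block they were 38 in CD8 and CD4 cells, 345 in dendritic cells, 735 against 1502 in monocytes, 897 against 1812 in lung endothelium and 1819 against 2939 in neutrophils, and DESeq2 called 71 in CD8 and CD4 cells. Correlations of same-numbered libraries were -0.053 to 0.0867 between ntCZC and tissue and -0.00265 to 0.062 between null and het. The main fits did not pair libraries by number. Such correlations cannot show whether libraries share a mouse. With a replicate block 5 members passed between ntCZC and tissue (8480 of 15766 genes) and 0 between null and het (5 of 9148 genes).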
